A study of Mus musculus with 6 samples.

Results

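Hypoxia targets outside glycolysis are genes that the hypoxia-inducible factors (HIF) switch on for purposes other than sugar breakdown: mitophagy and mitochondrial adjustment, hydroxylation and crosslinking of collagen, chromatin and transcription control, pH, secreted signals and fuel storage. The 39 members were taken from a list of symbols and looked up in the gene table, where all 39 were found among 28627 genes. Of these, 37 passed the filter on low values and were tested together with the other genes, 16681 in all. Car9 and Tmem45a did not pass it.

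The samples were 6 mouse retinas from postnatal day 15 of oxygen-induced retinopathy, 3 of Emcn+/+ pups (wild type for endomucin, a mucin-like protein on the surface of endothelial cells) and 3 of Emcn-/- littermates, which lack both copies of the gene. The labels name no promoter or cell type for the deletion, and all 6 samples come from the oxygen model, so both groups share it. The labels do not say that each sample is a separate animal, and p-values then rest only on the spread among these samples, which may be technical. In a whole retina, fewer cells of a type and less RNA per cell cannot be told apart.

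As background, cells with enough oxygen hydroxylate the HIF alpha subunits and destroy them, and cells short of oxygen keep them. The stabilised subunit pairs with ARNT and binds short DNA elements with the core ACGTG or GCGTG near its target genes. In oxygen-induced retinopathy the capillaries of the pup retina are first lost under high oxygen, and after the return to room air the tissue without vessels becomes hypoxic, which makes HIF targets a common readout of that stage.

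The promoters below belong to members with the smallest p-values or with genotypes that did not overlap. Only promoters holding ACGTG or GCGTG were printed, so a match in each is fixed by that choice. Each is the RefSeq window on GRCm38.p6 from 250 bases before to 50 bases after a start site, 300 bases long, written 5′ to 3′ on the gene's strand, with ACGTG and GCGTG on either strand in capitals. A CACGTG is a match on both strands and counts as 1 stretch, as do matches that share a base.
Bnip3 (chr7:138909457-138909756, minus strand): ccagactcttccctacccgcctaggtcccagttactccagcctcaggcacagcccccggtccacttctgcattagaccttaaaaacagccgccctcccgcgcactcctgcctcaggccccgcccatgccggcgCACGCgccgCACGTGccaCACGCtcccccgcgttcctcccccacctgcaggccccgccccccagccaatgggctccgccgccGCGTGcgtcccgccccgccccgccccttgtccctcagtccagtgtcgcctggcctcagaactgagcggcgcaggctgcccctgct
Fam162a (chr16:36071512-36071811, minus strand): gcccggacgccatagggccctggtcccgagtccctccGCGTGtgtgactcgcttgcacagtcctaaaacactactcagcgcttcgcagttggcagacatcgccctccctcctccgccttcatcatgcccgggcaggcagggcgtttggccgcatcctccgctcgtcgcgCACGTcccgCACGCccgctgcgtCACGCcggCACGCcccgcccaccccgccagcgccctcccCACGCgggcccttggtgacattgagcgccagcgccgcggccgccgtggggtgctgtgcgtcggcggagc
Higd1a (chr9:121857747-121858046, minus strand): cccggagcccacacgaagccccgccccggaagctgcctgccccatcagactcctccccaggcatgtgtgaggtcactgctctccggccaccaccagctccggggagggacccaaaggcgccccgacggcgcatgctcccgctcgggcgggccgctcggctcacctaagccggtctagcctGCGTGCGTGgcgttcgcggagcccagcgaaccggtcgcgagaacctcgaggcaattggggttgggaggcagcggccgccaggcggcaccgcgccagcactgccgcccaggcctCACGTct
Insig2 (chr1:121327975-121328274, minus strand): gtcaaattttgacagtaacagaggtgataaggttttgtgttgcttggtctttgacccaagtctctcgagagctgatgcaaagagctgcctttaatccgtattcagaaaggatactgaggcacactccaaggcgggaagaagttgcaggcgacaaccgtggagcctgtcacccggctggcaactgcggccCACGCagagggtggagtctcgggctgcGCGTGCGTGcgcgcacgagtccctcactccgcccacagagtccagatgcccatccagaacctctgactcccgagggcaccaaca
Mxi1 (chr19:53329163-53329462, plus strand): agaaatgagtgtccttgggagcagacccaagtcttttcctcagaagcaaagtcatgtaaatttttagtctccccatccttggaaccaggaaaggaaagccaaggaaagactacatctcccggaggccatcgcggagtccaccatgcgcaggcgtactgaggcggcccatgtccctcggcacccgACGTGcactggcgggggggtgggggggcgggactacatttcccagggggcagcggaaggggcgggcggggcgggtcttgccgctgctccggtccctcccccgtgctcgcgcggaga
The Bnip3 window holds 4 stretches with a match, that of Fam162a 6, Higd1a 2, Insig2 2 and Mxi1 1. For Insig2 and Mxi1, which have several annotated starts, the window with the most stretches is shown, or the first listed where windows tie. RefSeq windows were found for 29 of the 39 members, and Bnip3l and Ndufa4l2 were among those without one. Of the 29, 24 (82.8%) had a match in the first listed window. Over the 27025 genes with a window the share was 43.8%, and over the 11845 of them that were tested here it was 61.4%. The median number of CG pairs per window was 26 for the members and 20 for those tested genes, and both motifs contain a CG. The window of Car12, the member with the largest difference between the genotypes, holds no match, which says only that these letters are not in those 300 bases.

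The labelled genotypes were visible in the Emcn transcript, which had between 80.6 and 100.5 normalised reads in the Emcn+/+ libraries and between 1.04 and 4.62 in the Emcn-/- libraries (read counts divided by 1 factor per library). Library totals were 14865868 to 17087621 reads. Some libraries stood apart. Emcn+/+ replicate 3 alone had a high mean of the interferon response list (2.63 on a log2 scale, against -0.67 to -0.36 in the other libraries). It alone had many reads of Xist (17641 against at most 5) with 0 of the Y-linked Ddx3y (1143 to 1393 in the others). By these genes it was the only female library, so the Emcn+/+ group mixed sexes. For glial reactivity genes this library (0.82) and Emcn-/- replicate 3 (0.37) led, while the other 4 lay between -0.52 and -0.18, and red cell genes were also highest in these libraries (0.86 and 0.96, against -0.73 to -0.04). These are the 2 libraries with title numbers 186 and 188, against 144 to 148 for the others. Emcn+/+ replicate 1 had lens genes at a summed level of 31176 normalised reads, against 26.2 to 152 elsewhere, and Emcn-/- replicate 2 had the lowest mean of the endothelial list (-0.72 against 0.05 to 0.25).

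No member passed the test between the genotypes over all 6 libraries. Car12 and 5 of the 6 mitochondrial genes had the smallest unadjusted p, all with higher means in Emcn-/-, and the mean of the list differed by less than its spread among Emcn+/+ libraries. With limma on log2(value + 1) and Benjamini-Hochberg adjustment over 16681 genes, 0 of 37 members had an adjusted p under 0.05 in either direction, where 0.00599% of all tested genes did (1 gene, Emcn, lower). The smallest adjusted p among the members was 0.400. edgeR on the recovered reads also called 0 members and the same share of all genes. DESeq2 called 0 members with its own filter on weak genes, where it called 1.12% of the genes it adjusted. That filter left some tested members, Car12 among them, without an adjusted p. Without that filter it called 1 member, Car12, higher, where 0.049% of genes were. At an unadjusted p under 0.05 by limma, 6 members (16.2%) had higher values in Emcn-/- and 0 had lower values, against 3.67% and 4.47% of all tested genes (8.14% in either direction). The genotypes did not overlap in 5 members (13.5%), Bnip3, Bnip3l, Mxi1, Car12 and Insig2, each higher in 3 of 3 Emcn-/- libraries, and 0 members were lower without overlap. The same rule was met by 7.48% of all tested genes in the higher and 6.94% in the lower direction.

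Log2 fold changes of the members were small. Of 37, 23 (62.2%) were positive, with a median of 0.05, beside 52.0% positive and a median of 0.01 over all tested genes. For 22 of 37 members the size was under 0.1, as it was for 48.6% of all tested genes. The median standard error of a member was 0.09. With each gene centred on its own mean, Emcn+/+ replicates 1 to 3 averaged -0.07, -0.14 and 0.10 over the list and the Emcn-/- replicates -0.00, 0.04 and 0.07 on the log2 scale. Emcn+/+ replicate 3 was therefore the highest library of all 6, and the groups overlapped. The mean was -0.04 ± 0.13 in Emcn+/+ and 0.04 ± 0.04 in Emcn-/- (SD, n = 3 each), a difference of 0.07, smaller than the spread of the Emcn+/+ libraries.

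**Figure D1:**
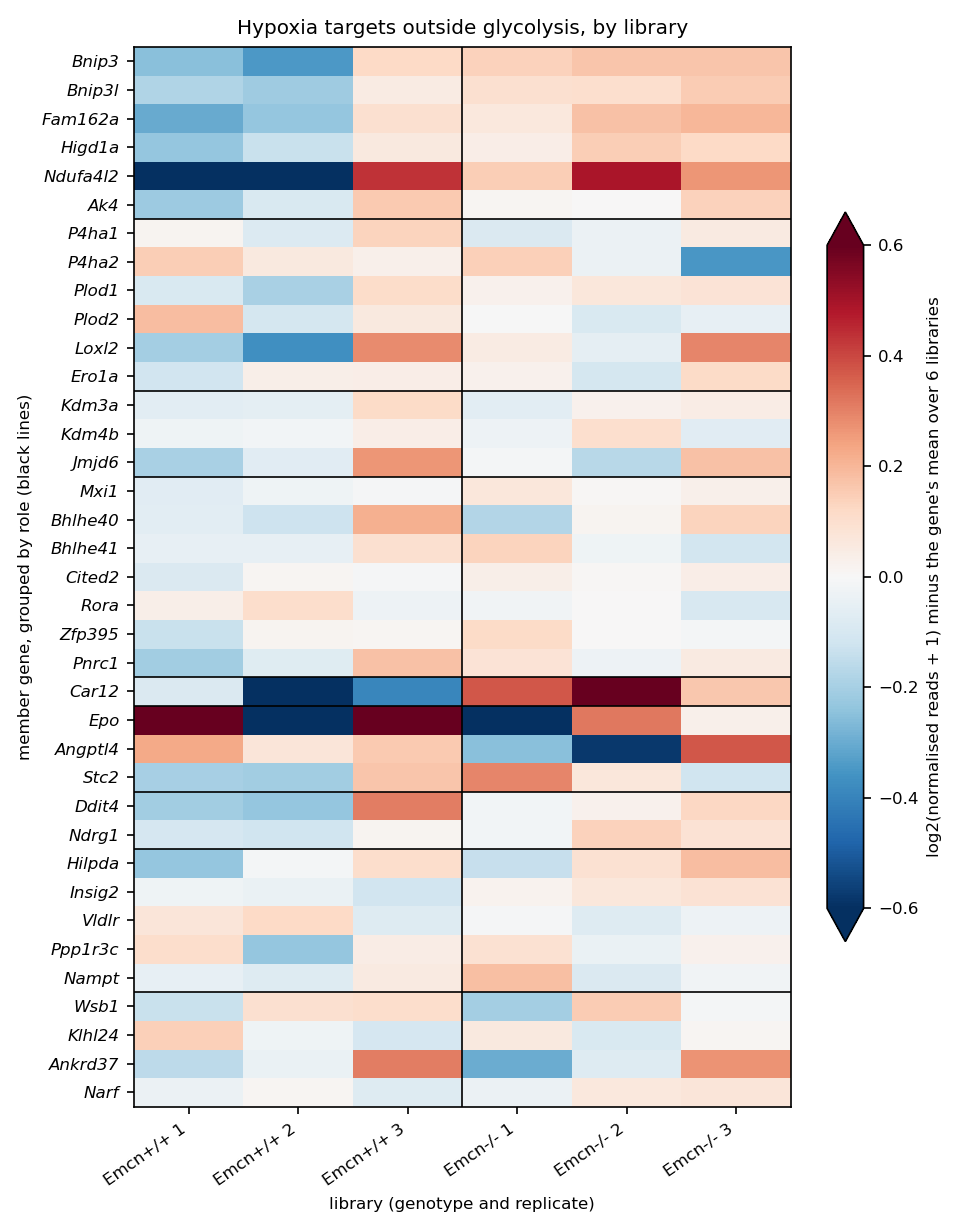
Heat map of the 37 tested members (rows, grouped by role) in the 6 libraries (columns), coloured by log2(normalised reads + 1) minus the gene's mean over the libraries. Blue cells gather in Emcn+/+ replicates 1 and 2 for the first 6 genes, which are the mitochondrial members, and are rarer in Emcn+/+ replicate 3.

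Emcn+/+ replicates 1 and 2 were the low libraries of this list. The lowest value of a member fell in one of those libraries for 22 of 37 members (59.5%), against 38.9% of all tested genes. The highest value fell in Emcn+/+ replicate 3 for 10 members and in Emcn-/- replicate 3 for 10, together 54.1% against 35.6% of all tested genes. Within the Emcn+/+ group, replicate 3 exceeded both other libraries for 25 of 37 members, where it did so for 37.8% of all tested genes.

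Mitochondrial members formed the role group with the most even shift. All 6 log2 fold changes were above 0 (median 0.26), 5 had an unadjusted p under 0.05, and 0 passed over all genes with limma or edgeR. On average they stood at -0.31 and -0.28 in Emcn+/+ replicates 1 and 2, at 0.15 in replicate 3, and at 0.08, 0.18 and 0.17 in the Emcn-/- libraries. Emcn+/+ replicate 3 thus lay inside the range of the Emcn-/- libraries, apart from the other Emcn+/+ libraries.

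Bnip3 and Bnip3l encode mitophagy receptors of the outer mitochondrial membrane, which hand mitochondria over to autophagosomes. Bnip3 (ENSMUSG00000078566, GRCm38 chromosome 7, 138890836 to 138909519, minus strand) had 1515, 1421 and 1961 normalised reads in Emcn+/+ replicates 1 to 3 and 1985, 2021 and 2025 in Emcn-/-. The Emcn-/- libraries lay close together and above all Emcn+/+ libraries, although the gap to Emcn+/+ replicate 3 was narrow. The means were 1632 ± 289 and 2010 ± 21.7 (SD, n = 3), a log2 fold change of 0.31 ± 0.11 (SE) with a limma adjusted p of 0.522. Bnip3l (ENSMUSG00000022051, chromosome 14, 66985239 to 67008877) had 2914, 2851 and 3421 normalised reads in Emcn+/+ and 3530, 3546 and 3668 in Emcn-/-. It showed the same order, with all 3 Emcn-/- libraries above all Emcn+/+ libraries. Its log2 fold change was 0.23 ± 0.07 (SE), with a limma adjusted p of 0.504. A pseudogene, Bnip3l-ps, is counted apart at 173 ± 16.3 and 203 ± 10.8 normalised reads, and reads may have been split between it and Bnip3l.

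Ndufa4l2, a small mitochondrial protein that lowers complex I activity in hypoxia, had the widest difference of the group. Its values were 566, 552 and 1201 normalised reads in Emcn+/+ and 985, 1251 and 1070 in Emcn-/-. Emcn+/+ replicate 3 held more than double the level of the other Emcn+/+ libraries and lay above 2 of the 3 Emcn-/- libraries. The log2 fold change was 0.60 ± 0.26 (SE, limma adjusted p = 0.604). Its exons share 32 bases with Shmt2 on the other strand.

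Fam162a, a mitochondrial protein linked to cell death under hypoxia, had 590, 620 and 778 normalised reads in Emcn+/+ and 761, 822 and 836 in Emcn-/-. Higd1a, which assists the respiratory chain complexes, had 1377, 1473 and 1686 in Emcn+/+ and 1664, 1791 and 1761 in Emcn-/-. In both genes Emcn+/+ replicate 3 overlapped only with Emcn-/- replicate 1. The log2 fold changes were 0.29 ± 0.10 for Fam162a and 0.21 ± 0.08 for Higd1a (SE, limma adjusted p = 0.531 and 0.560). Fam162a shares 168 exonic bases with Wdr5b on the other strand, and whether the libraries kept strand is not known. Ak4, an adenylate kinase of the mitochondrial matrix, ranged from 838 to 1086 normalised reads among Emcn+/+ libraries and from 976 to 1071 among Emcn-/- libraries (log2 fold change 0.10 ± 0.10).

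**Figure D2:**
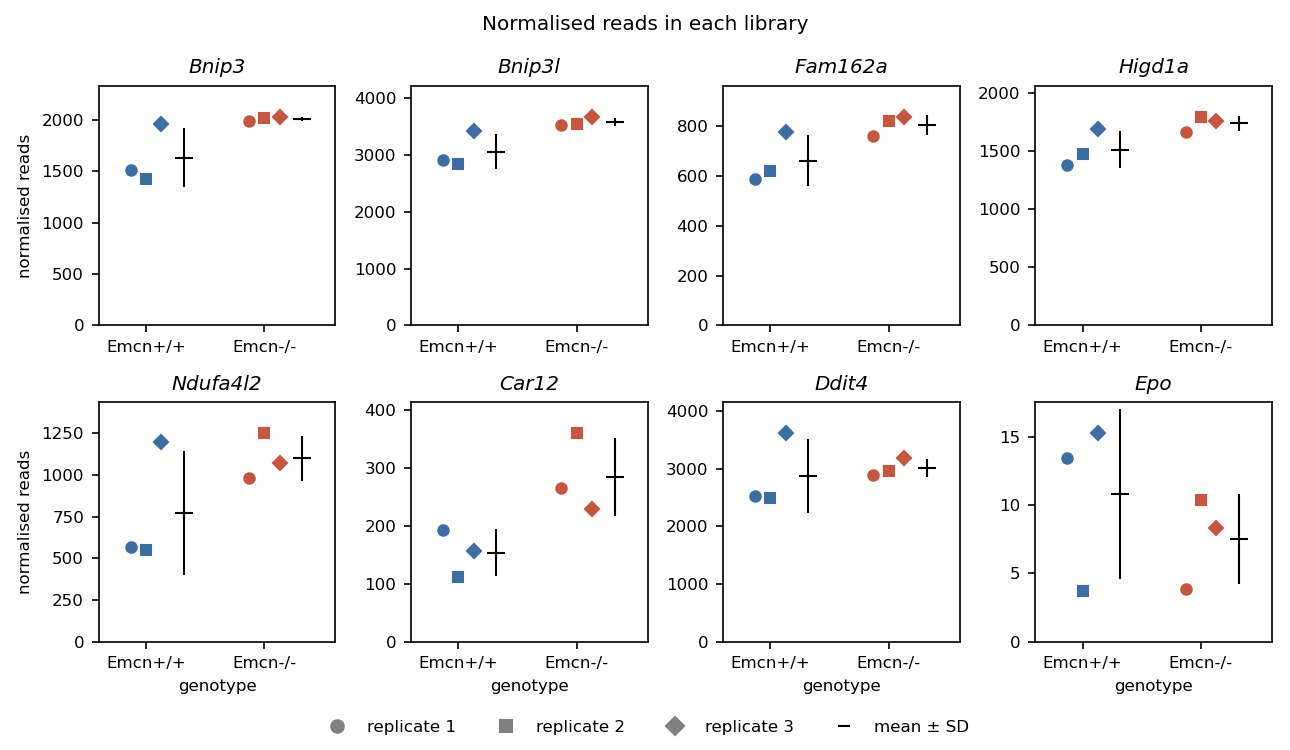
Normalised reads (y axis, from 0, own scale in each panel) of 8 members in the Emcn+/+ (blue) and Emcn-/- (red) libraries, with symbols for the replicates and the mean ± SD of 3 libraries beside them. The Emcn+/+ replicate 3 diamond lies near the Emcn-/- points for the mitochondrial genes and above them for Ddit4.

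What passed the test depended on Emcn+/+ replicate 3. Without it, limma called 147 of 17188 genes (0.855%; 0.215% higher, 0.64% lower), and 4 of 37 members were among them, all higher: Bnip3 (0.45, adjusted p = 0.0164), Bnip3l (0.31, 0.0317), Fam162a (0.41, 0.0448) and Ndufa4l2 (0.97, 0.00973). All 4 belong to the mitochondrial group. In the other hypoxia lists given below, the same fit called 4 of 12 vascular targets and 2 of 22 glycolysis and lactate genes. It also called 1 of 10 HIF subunits and oxygen sensors, and all of these were higher. Calls were not confined to hypoxia lists. Among the marker lists, that fit called 1 of 8 ciliary body and iris genes. It also called 1 of 8 tested genes of pericytes and smooth muscle. Higd1a was at 0.29 with an adjusted p of 0.0663. Without that library 29 of 37 members were positive with a median of 0.09, and 15 members were higher and 2 lower without overlap, against 18.7% and 17.3% of all genes tested that way. Among the 4 libraries titled 144 to 148, 2 of each genotype, Ndufa4l2 (0.99, limma adjusted p = 0.027) and Bnip3 (0.45, 0.0448) passed, where 0.213% of genes did (0.0355% higher). In those 4 libraries 16 members were higher and 3 lower without overlap, against 24.4% and 21.8% of all genes tested there. In the remaining pair, Emcn-/- replicate 3 minus Emcn+/+ replicate 3, 16 of 37 members were positive with a median of -0.03 on the log2 scale, and Ndufa4l2 was at -0.17. That pair has no replicate check. The interferon, glial reactivity and Xist values of Emcn+/+ replicate 3 given above move with this contrast among the Emcn+/+ libraries, and their part in it was not tested.

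**Figure D3:**
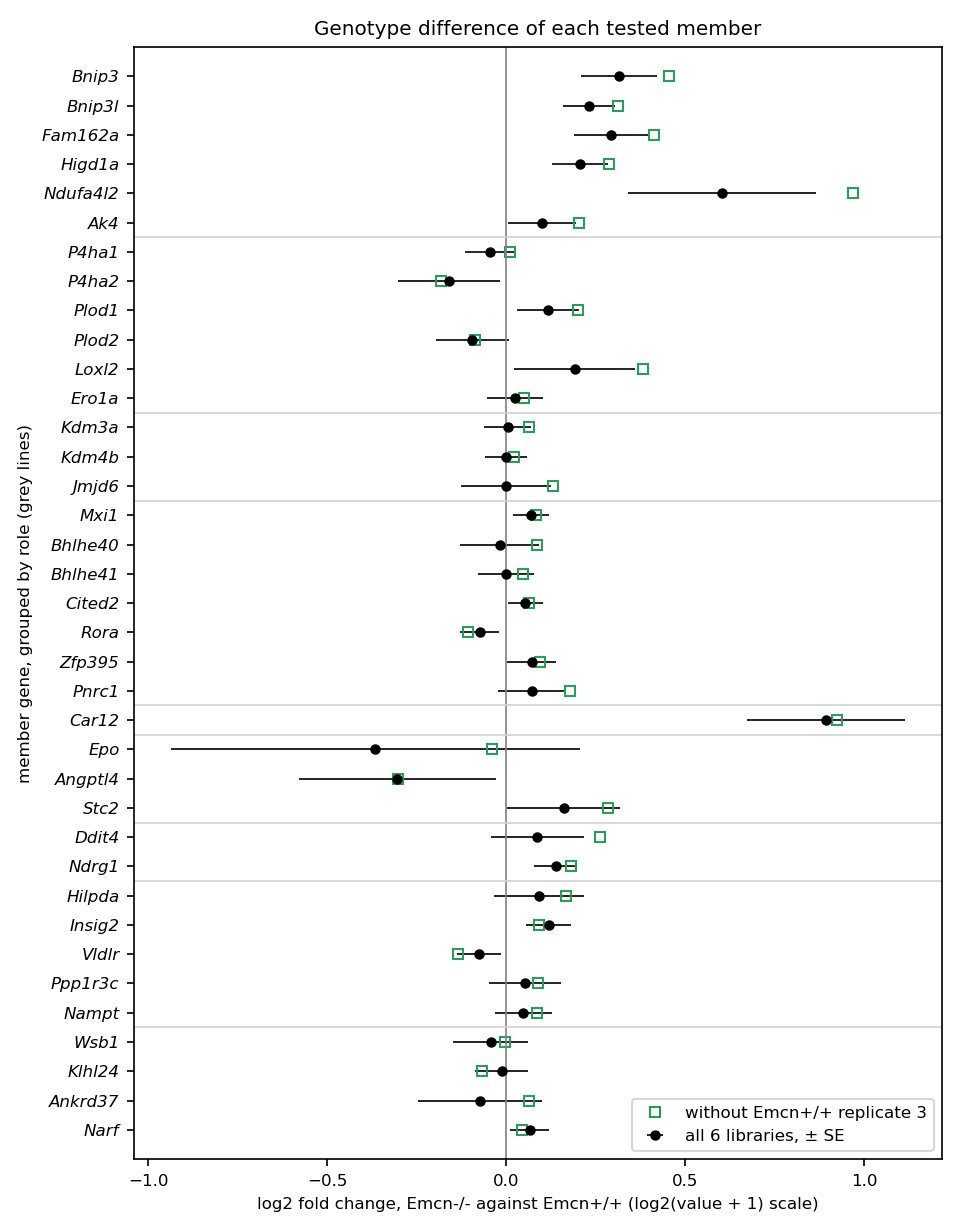
Log2 fold change of each tested member, Emcn-/- against Emcn+/+ (x axis), with all 6 libraries (black points, bars are SE) and without Emcn+/+ replicate 3 (green squares). Mitochondrial members at the top lie right of 0 and move further right without that library, from 0.60 to 0.97 for Ndufa4l2 and from 0.31 to 0.45 for Bnip3.

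Members for matrix and oxidative folding showed no common direction. P4ha1 and P4ha2 are catalytic subunits of collagen prolyl hydroxylase, Plod1 and Plod2 are lysyl hydroxylases, Loxl2 crosslinks collagen, and Ero1a reoxidises the enzyme that forms disulfide bonds. Of the 6 genes, 3 were positive and 3 negative, with a median of -0.01, from -0.16 ± 0.14 (SE) for P4ha2 to 0.19 ± 0.17 for Loxl2. P4ha2 had 190.8, 179 and 176 normalised reads in Emcn+/+ and 189.9, 168 and 135 in Emcn-/-. Emcn-/- replicates 2 and 3 lay below the Emcn+/+ range for P4ha2 and replicate 1 inside it, and its limma adjusted p was 0.784. Loxl2 was high in both libraries numbered replicate 3, at 357 in Emcn+/+ and 359.5 in Emcn-/-, against 227 to 303 in the other 4. P4ha1 averaged 1168 ± 88.8 normalised reads over the Emcn+/+ libraries and 1131 ± 55.8 over the Emcn-/- libraries (SD, n = 3). Plod1 was at 0.12 ± 0.09, Plod2 at -0.09 ± 0.10 and Ero1a at 0.02 ± 0.08 on the log2 scale (SE).

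The 3 JmjC dioxygenases, which need oxygen themselves, had nearly equal means. The histone demethylase Kdm3a had 1590 ± 114 normalised reads in Emcn+/+ against 1593 ± 64.3 in Emcn-/-, and its relative Kdm4b at 2096 ± 53.7 and 2097 ± 131 (SD, n = 3). Jmjd6, a hydroxylase of lysines in other proteins, stood at 869 ± 147 and 865 ± 104. Standard errors of the log2 fold changes were 0.07, 0.06 and 0.13. Jmjd6 shares 172 exonic bases with Mettl23 on the other strand.

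Transcription regulators kept within a narrow range, from -0.07 to 0.07 on the log2 scale, with 4 of 7 positive. Mxi1, an antagonist of MYC, was the member of this group without overlap, at 1657, 1704 and 1728 normalised reads in Emcn+/+ and 1824, 1744 and 1775 in Emcn-/-. All Emcn-/- libraries were above all Emcn+/+ libraries, but the lowest of the former and the highest of the latter nearly met. The log2 fold change was 0.07 ± 0.05 (SE, limma adjusted p = 0.725). Cited2, which competes with HIF for its coactivators, stood at 2950 ± 103 and 3061 ± 35.8 (0.05 ± 0.05). Bhlhe40 and Bhlhe41, repressors that also act in the circadian clock, stood at 673 ± 86.9 and 663 ± 71.0, and at 1122 ± 65.5 and 1124 ± 99.1. The nuclear receptor gene Rora, also a clock regulator, had 5880, 6172 and 5628 normalised reads in Emcn+/+ and 5662, 5756 and 5370 in Emcn-/- (-0.07 ± 0.06). With a trend on gene length removed its value was 0.03, so its direction depended on that step. Zfp395 and Pnrc1 were both at 0.07, with standard errors of 0.07 and 0.09.

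Car12 had the largest difference of the 37 members. It encodes a membrane carbonic anhydrase that hydrates carbon dioxide outside the cell (ENSMUSG00000032373, chromosome 9, 66713686 to 66766845, plus strand). Its values were 193, 112 and 156 normalised reads in Emcn+/+ and 266, 360 and 229 in Emcn-/-. All 3 Emcn-/- libraries were above all Emcn+/+ libraries, with Emcn-/- replicate 2 the highest. The means were 154 ± 40.4 and 285 ± 67.5 (SD, n = 3), a log2 fold change of 0.89 ± 0.22 (SE) with a limma adjusted p of 0.400, which ranged from 0.0969 to 0.940 over the limma alternatives. DESeq2 without its filter on weak genes gave 0.89 with an adjusted p of 0.0356, where it called 0.171% of genes.

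Genes of tissues next to the retina moved with Car12. All 9 tested marker genes of the retinal pigment epithelium were above 0 on the log2 fold change scale (median 0.92), as did all 8 of the ciliary body and iris (median 0.66), and none passed over all genes with limma. The summed level of the pigment epithelium markers was 3730 to 7835 normalised reads in Emcn+/+ and 8815 to 12315 in Emcn-/-, and that of the ciliary markers was 2891 to 4330 and 5325 to 5682. No marker of either list was at 0 in any library. The genes with the smallest p were Dct, of melanin synthesis (1.11 ± 0.26 SE, limma adjusted p = 0.400), and Ttr, the thyroid hormone carrier (0.92 ± 0.24, 0.424), in pigment epithelium, and the collagen genes Col9a1 (0.54 ± 0.11, 0.374) and Col9a2 (0.60 ± 0.14, 0.400) in ciliary body. DESeq2 called Col9a1 with its filter (adjusted p = 0.000764), and Col9a1 and Col9a2 without it (0.00298 and 0.0409). By library the pigment epithelium list averaged 0.13, -1.09 and -0.49 in Emcn+/+ and 0.05, 0.49 and 0.91 in Emcn-/- on the log2 scale. Emcn+/+ replicate 2 was lowest for this list as for Car12, but the list was highest in Emcn-/- replicate 3 and Car12 in Emcn-/- replicate 2. The tested markers were split in this. Rpe65, Rgr, Lrat and Ttr were highest in Emcn-/- replicate 2, as Car12 was. Tyrp1, Dct, Tyr, Mlana and Pmel were highest in Emcn-/- replicate 3. The part of these tissues in the Car12 difference was not tested.

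Car9, the other carbonic anhydrase of the list and a standard hypoxia marker, was hardly detected. It had 1, 2 and 11 reads in Emcn+/+ and 18, 3 and 5 in Emcn-/-, where the limit that a count of 0 allows is 3 reads. Tmem45a, a membrane protein gene, had 6, 10 and 13 reads in Emcn+/+ and 11, 8 and 6 in Emcn-/-. Neither gene separated the genotypes, and neither was tested.

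The secreted factors were weakly expressed and scattered. Epo, the red cell hormone erythropoietin, had 13.5, 3.71 and 15.3 normalised reads in Emcn+/+ and 3.89, 10.4 and 8.32 in Emcn-/-. The genotypes overlapped fully, and the log2 fold change was -0.37 ± 0.57 (SE, limma adjusted p = 0.884). Epo shares 104 exonic bases on the same strand with Gnb2, whose mean was 1946 normalised reads, so some of the few Epo reads may be uncertain. Angptl4, an inhibitor of lipoprotein lipase, had 42.5, 38.0 and 40.4 normalised reads in Emcn+/+ and 30.2, 23.9 and 47.1 in Emcn-/-. Emcn-/- held both the lowest and the highest Angptl4 value, and the log2 fold change was -0.30 ± 0.28 (SE, limma adjusted p = 0.785). Stc2, a stanniocalcin, stood at 145 ± 22.7 and 162 ± 23.4 (SD, n = 3).

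Ddit4 and Ndrg1 were among the most abundant members. Ddit4, which restrains the growth kinase mTORC1, had the highest level per length of the list, 1678 normalised reads per kb of exon, where the lowest, Tmem45a, had 2.89. Its values were 2530, 2490 and 3617 normalised reads in Emcn+/+ and 2885, 2970 and 3183 in Emcn-/-. Emcn+/+ replicate 3 was the highest library and the other Emcn+/+ libraries were the lowest, so that the Emcn-/- values lay between them (0.09 ± 0.13, limma adjusted p = 0.878). Ndrg1, a stress-responsive gene of differentiation, had 4117, 4066 and 4473 in Emcn+/+ and 4376, 4863 and 4689 in Emcn-/- (0.14 ± 0.06, 0.612). Only Emcn+/+ replicate 3 and Emcn-/- replicate 1 crossed for Ndrg1.

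Genes of lipid, glycogen and NAD metabolism differed by -0.08 to 0.12 on the log2 scale, with 4 of 5 positive. Insig2, which holds back the sterol sensor in the endoplasmic reticulum, had 694.9, 688 and 652 normalised reads in Emcn+/+ and 716, 742 and 751 in Emcn-/-. The Emcn-/- values were all higher, and Emcn+/+ replicate 3 was here the lowest library. The log2 fold change was 0.12 ± 0.06 (SE, limma adjusted p = 0.658). The lipoprotein receptor gene Vldlr stood at 5834 ± 414 and 5524 ± 135 normalised reads (-0.08 ± 0.06). Hilpda, a lipid droplet protein that blocks lipolysis, stood at 243 ± 28.3 and 259 ± 29.0, the glycogen targeting subunit gene Ppp1r3c at 444 ± 53.7 and 458 ± 20.7, and Nampt, of NAD synthesis, at 1052 ± 51.7 and 1090 ± 108.

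The remaining members did not separate the genotypes either. The ubiquitin ligase adaptor gene Wsb1 stood at 685 ± 61.6 and 666 ± 81.8 normalised reads, Klhl24 at 1643 ± 145 and 1626 ± 86.4, and Narf at 2081 ± 63.2 and 2178 ± 89.9 (SD, n = 3). Ankrd37, an ankyrin repeat protein, was high in both libraries numbered replicate 3, at 253 and 247 normalised reads against 167 to 199 elsewhere. Its exons share 349 bases with Lrp2bp on the other strand.

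In the other lists of the hypoxia pathway, Emcn+/+ replicates 1 and 2 were also the low libraries. They were lowest for the marker lists of rods (-0.12 and -0.03) and microglia (-0.10 and -0.19) as well. Without overlap, 5 of 22 glycolysis and lactate genes were higher, where 7.48% of all tested genes were. Of the 22 genes, 17 were positive with a median of 0.13, but 0 passed over all genes with limma. They averaged -0.13, -0.09 and 0.06 in the Emcn+/+ libraries against 0.03, 0.05 and 0.08 in the Emcn-/- libraries. Those with the smallest p were Gapdh (0.55 ± 0.09 SE, limma adjusted p = 0.305), uncertain because processed pseudogenes can share its reads, and the glucose transporter gene Slc2a1 (0.24 ± 0.06, 0.400). DESeq2 with its filter called Gapdh (adjusted p = 0.000276) but not Slc2a1 (0.0642). Slc2a1 had 4892, 4527 and 5205 normalised reads in Emcn+/+ and 5853, 5592 and 5840 in Emcn-/-, without overlap. Of 12 vascular hypoxia targets, 8 were positive with a median of 0.20, and 4 were higher without overlap. The 12 genes averaged -0.23, -0.36 and 0.26 in the Emcn+/+ libraries against 0.05, 0.11 and 0.18 in the others. The peptide gene Apln (0.70 ± 0.15, 0.374) and the tip cell gene Esm1 (1.03 ± 0.31, 0.482) had the smallest p of that list. DESeq2 with its filter called Apln (adjusted p = 0.000738) and gave Esm1 no adjusted p. Vegfa had 2467, 2781 and 3290 normalised reads in Emcn+/+ and 3053, 3550 and 2974 in Emcn-/-, an overlap of the groups. Among 10 HIF subunits and oxygen sensors, 6 were positive with a median of 0.06. Without overlap, 2 of the 10 were higher and 1 lower, where 6.94% of all tested genes were lower. Egln2 (0.13 ± 0.06) and Egln1 (0.18 ± 0.09), which hydroxylate HIF, had the smallest p (limma adjusted p = 0.643 for both).

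**Figure D4:**
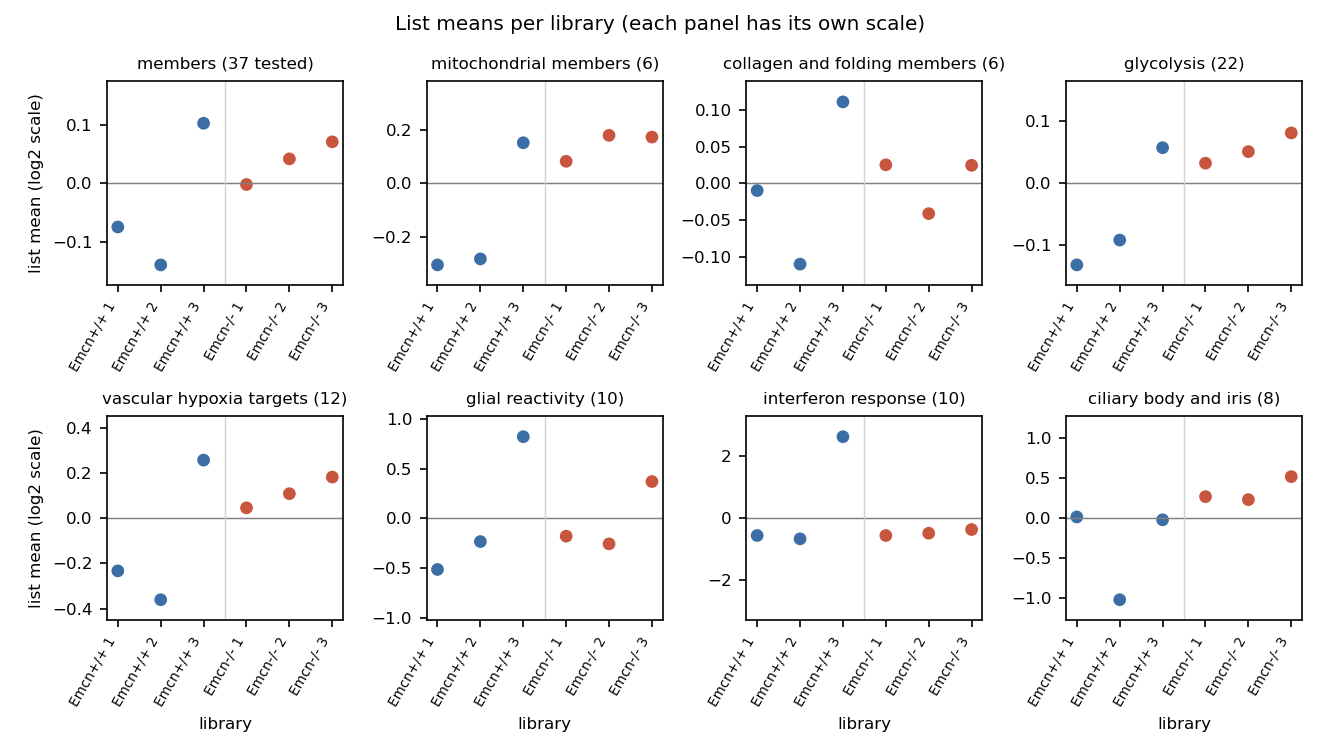
List mean per library (y axis, log2 scale, own range in each panel) for the members, for 2 role groups and for 5 other lists, Emcn+/+ in blue and Emcn-/- in red. Emcn+/+ replicate 3 lies near or above the Emcn-/- libraries in the members (0.10), mitochondrial genes (0.15), glycolysis (0.06) and vascular targets (0.26), and far above all others in the interferon panel (2.63).

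Lists of pathways that also control some members differed among themselves. Bhlhe40, Bhlhe41 and Rora belong to the circadian clock, and of 16 other clock genes 7 were positive and 9 negative, with a median of -0.01. The smallest p in that list belonged to Per3 (-0.19 ± 0.09 SE, limma adjusted p = 0.615) and Clock (-0.12 ± 0.06, 0.657). Ddit4 also responds to glucocorticoids, and of 14 tested genes in a joint list of glucocorticoid and FOXO targets 9 were positive with a median of 0.04, with the smallest p for Sgk1, a kinase induced by glucocorticoids (0.41 ± 0.13, 0.499), and Sesn1, a FOXO target (0.15 ± 0.06, 0.561). Stc2 and Ero1a also respond to stress of the endoplasmic reticulum, and of 12 genes in a joint list of amino acid and endoplasmic reticulum stress targets of ATF4 10 were positive with a median of 0.09. Its smallest p belonged to Psat1, of serine synthesis (0.18 ± 0.07, limma adjusted p = 0.581) and Sesn2 (0.14 ± 0.08, 0.682). In none of these lists did a gene pass over all genes with limma. The ATF4 list was high in both libraries numbered replicate 3, with means of 0.23 in Emcn+/+ and 0.17 in Emcn-/- against -0.23 to -0.02 in the others. As for the members, Emcn+/+ replicates 1 and 2 were its lowest libraries (-0.08 and -0.23) and Emcn+/+ replicate 3 its highest.

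The marker lists of retinal cell types differed in direction, and none had a gene past the limma test. Markers were positive in 10 of 10 genes for rods (median 0.10), 5 of 7 for cones (0.13), 6 of 10 for Müller glia (0.15) and 4 of 8 for ganglion cells (0.02). They were positive in 2 of 7 for bipolar cells (-0.02), 3 of 8 for microglia (-0.01), 3 of 8 for pericytes and smooth muscle (-0.11) and 1 of 10 for endothelium (-0.24). Which cells gave the reads of the members is not shown by whole retinas. Gfap, the intermediate filament of reactive glia, had 999, 1223 and 3372 normalised reads in Emcn+/+ and 1347, 1258 and 2803 in Emcn-/-, high in both libraries numbered replicate 3, and the part of glial reactivity in the member values was not tested.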

How the data were processed

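The deposited table gives a read signal per gene for each of the 6 retina libraries. Per the labels' protocols, messenger RNA was taken from total RNA on poly-T beads, and the text covers both directional and non-directional libraries. Per the submitters' processing notes the build was GRCm38, and the sources used here do not name aligner, counter or scaling. Dividing each library's deposited signal by its smallest step gave whole reads for 100% of values (within 0.001 of a read). Every pair of libraries differed by more than sampling noise (mean chi-square per gene at least 5.22).

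The planned main test, limma-trend on log2(value + 1) with no other term than genotype (limma 3.58.1, R 4.3.3), was fitted on the 16681 genes passing edgeR's expression filter (minimum count 10). Fold changes on that scale understate low genes. edgeR 4.0.16 and DESeq2 1.42.0 on the recovered reads, the latter on the whole table, were alternatives. Of the 28627 genes, 27390 had positions and lengths in GENCODE M21. The limma script was tested on simulated data. Members and lists were chosen with earlier results of these data known, so no p over a list is given. All 39 members are named. By rule, values by library are given for members past the threshold, without overlap between genotypes, with the 3 highest or 3 lowest fold changes or the 3 widest spreads, or under the filter. Those of Fam162a, Higd1a, Rora, Ddit4 and Ndrg1 were added after they were seen. Of each pathway list, the 2 genes with the smallest p are named, besides Emcn, Vegfa, Slc2a1 and Gfap. Xist, Ddx3y, Bnip3l-ps and 4 marker genes, the 2 with the smallest p in each list beside Car12, were named after their values were seen. So were the other tested pigment epithelium markers. Protein sequences were not used here.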

Additional observations from a re-analysis of the deposited data

How the results depend on the processing

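Over 17 alternatives and 37 members, 619 log2 fold changes were recomputed. Of these, 566 kept their direction and their side of the threshold, 7 passed it, all upward, and 46 changed sign, in 16 members whose size was at most 0.09. The other 21 members kept their direction. TMM and upper-quartile scaling moved the median of all genes by at most 0.01.

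The counts moved more. Over all genes, DESeq2 called 13 higher and 59 lower with its filter and 14 and 35 without it, and the libraries titled 144 to 148 gave 6 and 30. Leaving out 1 library gave 0 to 37 higher and 0 to 110 lower, the highest without Emcn+/+ replicate 3. Emcn lost its call without Emcn+/+ replicates 1 or 2 or Emcn-/- replicate 1. Members called higher numbered 1 with the unfiltered DESeq2 (Car12), where 0.049% of genes were, and 2 in the libraries titled 144 to 148, where 0.0355% were. They numbered 0 to 4 with 1 library left out, the highest without Emcn+/+ replicate 3, where 0.215% of genes were called higher. Members without overlap numbered 16 higher and 3 lower in the libraries titled 144 to 148, beside 24.4% and 21.8% of all genes there. With 1 library left out they numbered 5 to 15 higher and 0 to 2 lower. The 15 and 2 came without Emcn+/+ replicate 3, beside 18.7% and 17.3% of all genes in that fit. Fewer libraries make overlap rarer.

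Signs changed as follows. With the libraries titled 144 to 148, Ero1a was at -0.00093, Kdm4b was at 0.055, Jmjd6 was at 0.042, Bhlhe40 was at 0.014 and Bhlhe41 was at 0.10. With edgeR, Kdm3a was at -0.0045. With upper-quartile scaling, Kdm3a was at -0.0068. With unfiltered DESeq2, Kdm4b was at 0.00088 and Bhlhe41 was at 0.0020. With DESeq2, Kdm4b was at 0.00088 and Bhlhe41 was at 0.0020. With TMM scaling, Kdm4b was at 0.00044, Jmjd6 was at 5.6e-05 and Bhlhe41 was at 0.00054. With the length trend removed, Kdm4b was at 0.0029, Bhlhe41 was at 0.027, Rora was at 0.031 and Klhl24 was at 0.058. With 1 library left out, the range was P4ha1 -0.097 to 0.012, Ero1a -0.027 to 0.082, Kdm3a -0.026 to 0.063, Kdm4b -0.051 to 0.034, Jmjd6 -0.098 to 0.13, Bhlhe40 -0.089 to 0.085, Bhlhe41 -0.068 to 0.056, Pnrc1 -0.017 to 0.18, Ddit4 -0.0070 to 0.26, Hilpda -0.0013 to 0.18, Ppp1r3c -0.050 to 0.12, Nampt -0.031 to 0.10, Wsb1 -0.13 to 0.048, Klhl24 -0.066 to 0.056 and Ankrd37 -0.22 to 0.062. The cause of these changes was not tested.

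No paired analysis was possible because replicates were numbered by accession order only, which links no Emcn+/+ sample to an Emcn-/- sample; the title-number series as a term changed no call. At 3 libraries a genotype, precision is limited: 22 of 37 members differed by under 0.1, near the median standard error of 0.09. Of all tested genes, 48.6% differed by under 0.1.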
